A study of Mus musculus with 10 samples.

Results

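Lyz1 and Lyz2 are 2 lysozyme c genes of the mouse, and they were taken as 2 of the 54532 genes in a table of spleen gene expression. They were chosen by their gene names after the DUSP6 KO and WT values of Lyz1 in this table were known. The levels of both genes, their ratio and their sum in the 2 groups are therefore a description, and no test is read from them. Spleens were collected from 10 mice at the peak of KRN serum-induced arthritis (KSIA), and polyadenylated RNA was sequenced. The WT group was 5 C57BL/6J mice, and the DUSP6 KO group was 5 mice homozygous for the Dusp6tm1Jmol allele, which the labels call a DUSP6 knockdown. All 10 mice received 100 µL of pooled serum from arthritic KRN x NOD F1 mice by intraperitoneal injection on days 0 and 2, and the spleens were taken on day 9. The mice were 8 to 12 weeks old per the methods of the study. Males and females were used, but the labels give no sex for a single spleen. The KO allele is a germline allele, and KO and WT mice were bought from the same supplier as separate strains. Genotype and line of origin therefore cannot be told apart. No mouse without serum was included, so the levels of the lysozymes outside arthritis are not known from these samples.

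Lysozyme c cleaves the glycan backbone of bacterial peptidoglycan and is stored in granules or lysosomes. Mice carry a tandem pair of genes. Lyz2, also called LysM, is the form of macrophages, monocytes and neutrophils, and its promoter drives the widely used LysM-Cre. Lyz1, also called LysP, is best known as the form of Paneth cells of the small intestine. DUSP6 is a phosphatase that switches off the kinases ERK1 and ERK2.

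The 2 genes adjoin each other on the minus strand of chromosome 10 in the mouse build GRCm38. Lyz1 (ENSMUSG00000069515) spans chr10:117287797-117292868 and Lyz2 (ENSMUSG00000069516) spans chr10:117277331-117282321, with 5475 bases between them. Dusp6 lies 18.0 Mb away on the same chromosome, at chr10:99263231-99267489. Each lysozyme gene has 4 exons, a coding sequence of 444 bases and a protein of 148 residues. The coding sequences differ at 22 bases and the proteins at 12 residues, an identity of 91.9%. The transcripts were 95.8% identical over 1264 aligned bases, with 51 mismatches. Exon 2, which is coding throughout its 165 bases, shows how close the 2 genes are and which bases let a read be placed in 1 of them. It lies at chr10:117291029-117291193 in Lyz1 and at chr10:117280641-117280805 in Lyz2, both on the minus strand of GRCm38. The exons are given 5′ to 3′ with the 6 bases that differ in capitals.
Lyz1 exon 2: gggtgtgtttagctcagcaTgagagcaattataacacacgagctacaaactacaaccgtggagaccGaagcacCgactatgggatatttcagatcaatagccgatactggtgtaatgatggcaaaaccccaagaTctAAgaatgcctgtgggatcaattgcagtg
Lyz2 exon 2: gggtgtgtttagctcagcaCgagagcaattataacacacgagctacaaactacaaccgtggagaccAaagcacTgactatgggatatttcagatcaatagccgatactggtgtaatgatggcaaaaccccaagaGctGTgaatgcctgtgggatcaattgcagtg

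Because the genes are so alike, the transcripts were searched for stretches that are identical in both. Of all 50-base windows of the Lyz1 transcript, 16.1% were also found in Lyz2, and of all 100-base windows 2.06%. No 150-base window was shared. For Lyz2 the shares were 15.4%, 1.97% and 0%. A fragment of 150 bases or more from either gene therefore holds at least 1 base that tells them apart, while a shorter read may not. How the authors' counting treated reads that fit both genes is not given in the sources used here, so the split between Lyz1 and Lyz2 is uncertain to that extent.

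The genes differed more in their upstream sequence than in their exons. The stretches from 250 to 50 bases before the RefSeq start of each gene are shown because they lie in the promoters of the pair. They are RefSeq sequences of build GRCm38.p6, minus strand, at chr10:117292918-117293118 for Lyz1 and chr10:117282322-117282522 for Lyz2. Capitals mark bases that differ or lie opposite a gap in a global alignment.
Lyz1 upstream: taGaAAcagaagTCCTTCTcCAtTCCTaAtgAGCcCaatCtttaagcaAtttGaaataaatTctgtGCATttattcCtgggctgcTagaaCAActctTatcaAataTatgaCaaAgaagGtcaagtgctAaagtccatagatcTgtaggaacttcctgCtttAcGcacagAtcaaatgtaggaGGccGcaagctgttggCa
Lyz2 upstream: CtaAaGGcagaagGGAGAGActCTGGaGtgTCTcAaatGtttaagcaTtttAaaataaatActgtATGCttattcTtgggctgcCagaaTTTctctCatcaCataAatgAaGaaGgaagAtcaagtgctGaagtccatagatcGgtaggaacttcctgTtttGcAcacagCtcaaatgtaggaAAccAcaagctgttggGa

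In the alignment 151 bases were alike, 48 differed and 4 lay opposite a gap, so 75.9% of the paired bases were alike. Both strands of the 2 stretches were searched for 3 short motifs. AGGAAGT, a match to the core bound by Ets factors such as PU.1, was found once in each, and 5.71% of 32851 mouse promoter stretches of the same length hold it. ACCACA, a match to the Runx core, was found in Lyz2 and not in Lyz1 (11.6% of promoters). TATAAA, the TATA box, was found in neither (9.18% of promoters). The matches did not overlap each other. They describe the letters only, and no binding was measured here.

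The libraries held 14990474 to 19822673 reads assigned to genes in DUSP6 KO and 15611652 to 18422147 in WT, so both groups were sequenced to similar depths. Levels are given as FPKM, which scale the reads of a gene to its length and to the size of the library. Dusp6 itself was at 0.428, 0.624, 0.458, 0.383 and 0.308 FPKM in KO replicates 26, 21, 73, 01 and 03. In WT replicates 65, 67, 73, 77 and 83 it was at 19.4, 24.0, 19.4, 16.6 and 17.7 FPKM. Dusp6 was thus lower in each library labelled KO than in any labelled WT.

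Lyz1 was low in WT spleen and higher in every DUSP6 KO spleen. In KO replicates 26, 21, 73, 01 and 03 the level of Lyz1 was 34.0, 41.4, 19.3, 19.7 and 24.8 FPKM. In WT replicates 65, 67, 73, 77 and 83 it was 8.52, 6.10, 4.68, 3.57 and 5.70 FPKM. The groups did not overlap, and the lowest KO spleen, replicate 73, was 2.27 times the highest WT spleen, replicate 65. The mean was 27.9 ± 9.6 FPKM (SD, n = 5) in KO against 5.71 ± 1.85 FPKM (SD, n = 5) in WT, a ratio of 4.87. On the log2(FPKM + 0.1) scale the difference of KO minus WT was 2.26 with a standard error of 0.30, against a pooled SD between spleens of 0.47. KO replicates 26 and 21 stood above the other 3 KO spleens, and the SD was 34.6% of the mean in KO and 32.4% in WT. As background, a fit across the 21296 genes that passed the filter on low values called 15 genes at an adjusted p of 0.05 or less (limma, Benjamini-Hochberg), which is 0.0704% of those tested, 8 of them higher and 7 lower in KO. Both lysozyme genes passed that filter in either group alone. Since Lyz1 was chosen from this contrast, nothing is read from its place among the 15 or from the lack of overlap. The share of all genes tested whose groups did not overlap was not counted.

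These levels of Lyz1 rest on moderate numbers of reads. Reads recovered from the FPKM values were 802, 1017, 358, 538 and 520 in the KO spleens in the order above. In the WT spleens they were 184, 147, 102, 75 and 129. Among 22046 protein-coding genes ranked by FPKM, Lyz1 was between rank 911 and rank 2696 in the KO spleens. It was between rank 5242 and rank 8528 in the WT spleens. Lyz1 was thus detected in all 10 spleens, but in WT it sat among genes of modest abundance.

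Lyz2 was one of the most abundant mRNAs of the spleen in both groups. Its level was 1360, 1815, 1247, 1346 and 1615 FPKM in KO replicates 26, 21, 73, 01 and 03. In WT replicates 65, 67, 73, 77 and 83 it was 1176, 1475, 1305, 1226 and 1383 FPKM. The groups overlapped, with KO replicate 73 below 3 of the WT spleens and KO replicates 21 and 03 above all of them. The mean was 1476 ± 233 FPKM (SD, n = 5) in KO against 1313 ± 120 FPKM (SD, n = 5) in WT, a ratio of 1.12. The log2 difference of KO minus WT was 0.16 with a standard error of 0.12, below the pooled SD of 0.18. Without KO replicate 21 this difference was 0.08. Between 24036 and 46429 reads were assigned to Lyz2 per library, and it ranked between 11 and 24 among the protein-coding genes.

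**Figure D1:**
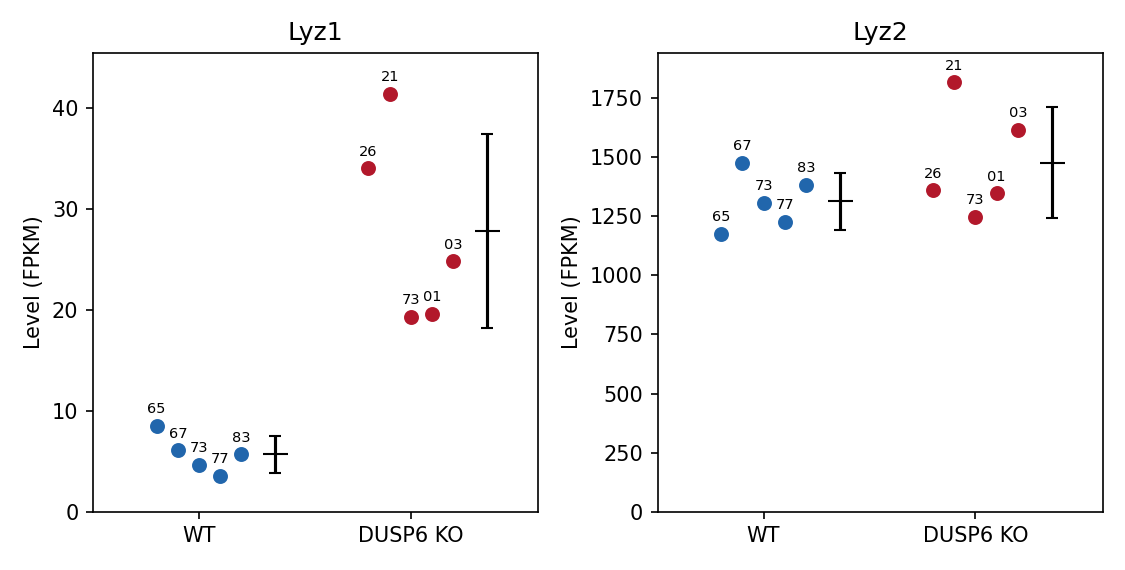
Level of Lyz1 (left) and Lyz2 (right) in FPKM in each spleen, WT in blue and DUSP6 KO in red, with the replicate number above each point and the mean ± SD of 5 spleens beside it; the 2 axes have different scales. The KO spleens lie between 19.3 and 41.4 FPKM for Lyz1, all above the WT spleens, while the groups overlap for Lyz2.

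The balance between the 2 genes was taken within each spleen, which cancels the library size. Lyz1 was 2.50%, 2.28%, 1.55%, 1.46% and 1.54% of Lyz2 by FPKM in KO replicates 26, 21, 73, 01 and 03. It was 0.725%, 0.413%, 0.359%, 0.291% and 0.412% of Lyz2 in WT replicates 65, 67, 73, 77 and 83. The groups did not overlap, and the lowest KO spleen was 2.02 times the highest WT spleen. The mean was 1.87% ± 0.49 (SD, n = 5) in KO and 0.440% ± 0.167 (SD, n = 5) in WT, and the log2 difference of the ratio was 2.10 with a standard error of 0.27. Within KO, replicates 73, 01 and 03 lay close together and replicates 26 and 21 lay higher. Within WT, replicate 65 stood above the other 4.

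The same order was seen in reads. Lyz1 took 1.38% of the reads of the pair in KO replicate 01, the lowest KO share, with a 95% Wilson interval of 1.27 to 1.50%. It took 0.691% in WT replicate 65, the highest WT share, with an interval of 0.598 to 0.797%. These intervals cover counting error only, not the spread between mice. In WT replicate 77, which had the fewest Lyz1 reads, the share was 0.279% with an interval of 0.223 to 0.349%. Lyz2 was between 40.0 and 68.4 times Lyz1 in the KO spleens and between 138 and 343 times Lyz1 in the WT spleens, so Lyz2 remained the main lysozyme transcript in every spleen.

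**Figure D2:**
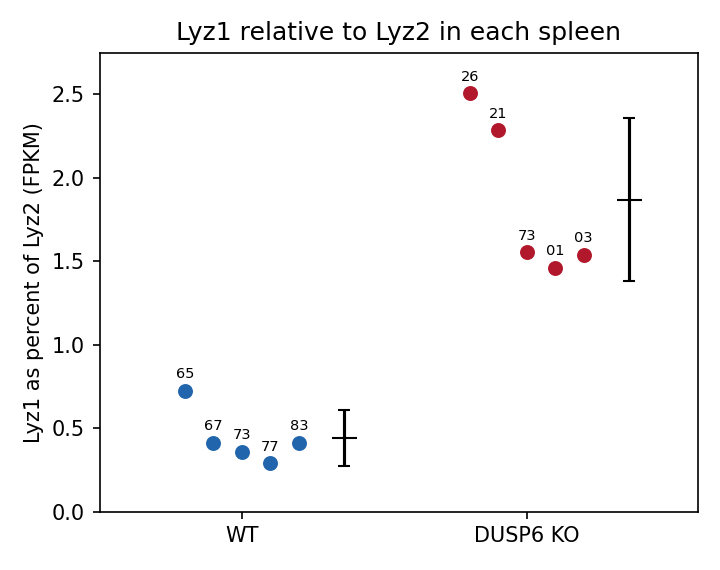
Lyz1 as a percentage of Lyz2, by FPKM, in each spleen, WT in blue and DUSP6 KO in red, with the replicate number above each point and the mean ± SD of 5 spleens beside it. The KO spleens lie between 1.46% and 2.50% and the WT spleens between 0.291% and 0.725%.

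The sum of the 2 genes followed Lyz2. It was 1394, 1856, 1266, 1365 and 1639 FPKM in KO replicates 26, 21, 73, 01 and 03. It was 1185, 1481, 1310, 1229 and 1388 FPKM in WT replicates 65, 67, 73, 77 and 83. The groups overlapped. The mean sum was 1504 ± 240 FPKM (SD, n = 5) in KO against 1319 ± 120 FPKM (SD, n = 5) in WT. The log2 difference of the sum was 0.18 with a standard error of 0.12, and it was 0.10 without KO replicate 21. The higher mean of Lyz1 in KO amounted to 22.1 FPKM, or 1.50% of the mean level of Lyz2 in KO, while the SD of Lyz2 between KO spleens was 15.8% of its mean. Together the genes took between 0.158% and 0.274% of the reads of a library. The spleens with the most Lyz1 were not simply those with the most Lyz2. Within its group KO replicate 26 ranked 2 for Lyz1 and 3 for Lyz2, and KO replicate 03 ranked 2 for Lyz2 and 3 for Lyz1. After subtraction of the group means, the correlation of log2 levels of Lyz1 and Lyz2 over the 10 spleens was 0.43, given as a description since the values share a library.

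No other lysozyme gene examined was appreciably expressed. The coding gene 9530003J23Rik was not on the family list. It aligned with the Lyz1 transcript at 72.1% identity over 427 bases and had at most 1 read in a library. Of 8 further genes listed for the family, 5 (Lyzl1, Lyzl6, Spaca3, Lyg1 and Lyg2) had no read in any library. Spaca5 had at most 4 reads in a library and did not pass the filter. The remaining 2 passed it at low levels. Lyzl4 had a mean of 0.222 FPKM and Lalba, which encodes alpha-lactalbumin, the lysozyme relative of milk, had a mean of 0.142 FPKM, and neither had an unadjusted p under 0.05 (limma).

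The genes around the pair were read from the same fit, as they were not used to choose it. Of 61 genes within 1 Mb of Lyz1 and Lyz2, 26 passed the filter, and 15 of these are protein-coding. None of the 26 was called at an adjusted p of 0.05 or less (limma; lowest adjusted p = 0.959) and none had an unadjusted p under 0.05. The limma voom fit on recovered reads also called none. Yeats4, a reader of acetylated histones and the nearest expressed coding gene on the Lyz2 side, had a log2 difference of -0.09 with a standard error of 0.07. Its levels were 37.5 to 43.5 FPKM in KO and 40.0 to 45.7 FPKM in WT. Cpsf6, a subunit of the cleavage factor of mRNA 3′ end processing and the nearest on the Lyz1 side, had a log2 difference of -0.12 with a standard error of 0.09. Its levels were 13.2 to 15.2 FPKM in KO and 13.7 to 17.7 FPKM in WT. Both genes thus overlapped between the groups. Further out, Frs2, an adaptor of fibroblast growth factor receptors, was at 0.02 and Mdm2, the ubiquitin ligase of p53, at -0.06 on the log2 scale. Rap1b, a small GTPase, was at -0.12. The median log2 difference of the 15 coding genes was 0.01, and that of all 21296 genes tested was -0.0046. The predicted genes Gm10271 and Gm32802, with at most 11 and 15 reads in a library, lay furthest from 0 among the 15 coding genes, at 0.84 and -0.47. Over all 26 tested genes the values ran from -0.69 to 0.84.

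**Figure D3:**
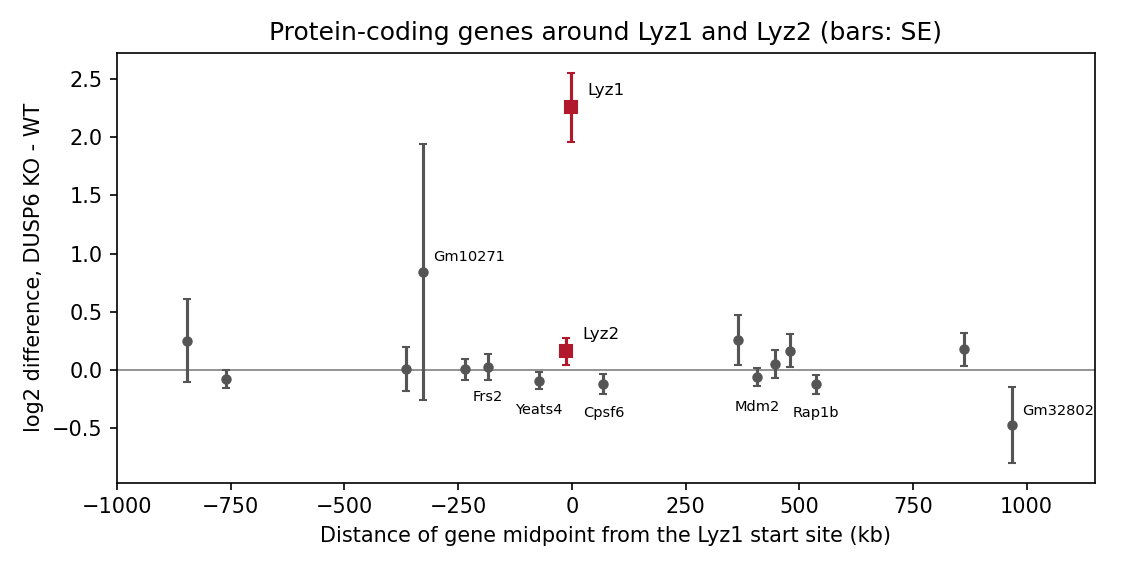
log2 difference of DUSP6 KO minus WT (vertical axis) against the distance of each gene's midpoint from the Lyz1 start site in kb (horizontal axis), for Lyz1 and Lyz2 (red squares) and the 15 tested protein-coding genes within 1 Mb (grey points), with bars for the standard error. Lyz1 lies at 2.26, Lyz2 at 0.16, and none of the 15 grey genes was called.

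Lyz2 marks myeloid cells, so the lists of myeloid genes were read beside the pair. In bulk spleen, fewer cells of a type and less RNA per cell cannot be told apart. Over all lists, 142 of 165 genes passed the filter and none was called at an adjusted p of 0.05 or less (limma; lowest adjusted p = 0.258, Vcan), while limma voom on recovered reads called 1, Vcan (adjusted p = 0.0244, lower in KO). At an unadjusted p under 0.05, 13 of the 142 were higher in KO, against 2.62% of all genes tested, and 23 were lower, against 3.03% of all genes tested. No listed gene passed the adjustment in the fit on FPKM over all 10 libraries, so what follows gives values and counts. The study's own test of read counts (DESeq2) did call some listed genes after adjustment. Among them were Vcan, lower in KO, and Marco and Cd209b, higher in KO. The absence of calls here therefore belongs to the fit on FPKM. B cell genes, the spleen patterning factors Tlx1 and Nkx2-5 and the red pulp macrophage factor Spic were used to check the tissue, and their summed level was 442 to 1038 FPKM, so they were detected in every library. Of these 7 genes, 1, Tlx1, was higher in KO at an unadjusted p under 0.05, with a log2 difference of 0.58, and the count was 2 without WT replicate 77.

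Genes of neutrophil granules, where lysozyme is also stored, had medians on the opposite side of 0 from both lysozyme genes. Of 11 secondary granule genes tested, 8 had an unadjusted p under 0.05, all lower in KO, and the median log2 difference was -1.09. Ngp, neutrophilic granule protein, was 155 ± 99 FPKM (SD, n = 5) in KO against 376 ± 290 FPKM (SD, n = 5) in WT. Camp, the cathelicidin precursor, was 72.5 ± 49.1 FPKM (SD, n = 5) in KO against 172 ± 123 FPKM (SD, n = 5) in WT. Both genes overlapped between the groups. The sum of the list was 243 to 741 FPKM in KO and 372 to 1919 FPKM in WT. In KO replicates 26, 21, 73, 01 and 03 it was 388, 243, 741, 254 and 312 FPKM. In WT replicates 65, 67, 73, 77 and 83 it was 552, 372, 805, 1919 and 693 FPKM. The highest sum of each group was in the spleen with the lowest Lyz1 of that group, KO replicate 73 and WT replicate 77. The lowest KO sum was in replicate 21, which had the highest Lyz1, and the next lowest in replicate 01, which had the second lowest Lyz1 of the KO spleens. Of 6 primary granule genes, 3 were lower at an unadjusted p under 0.05 (Srgn, Elane and Ms4a3), with a median of -1.02. Of 12 mature neutrophil genes, 4 were lower (S100a8, S100a9, Il1r2 and Padi4), with a median of -0.38. Among 17 other antimicrobial proteins of myeloid cells, a list that shares genes with the granule lists, 9 were lower and none higher, with a median of -1.04. The part of these genes in the levels of Lyz1 was not tested. These counts depended on single libraries. The count for the 11 secondary granule genes was 3 without KO replicate 01, 4 without KO replicate 03 or WT replicate 77, and 5 without KO replicate 21, WT replicate 73 or WT replicate 83. For the 6 primary granule genes it was 0 without KO replicate 01 or 03, 1 without KO replicate 21 or WT replicate 73, and 5 without WT replicate 67 or with limma voom. For the 12 mature neutrophil genes it was 2 without KO replicate 01, KO replicate 03, WT replicate 73 or WT replicate 77, and 9 without KO replicate 21. For the 17 antimicrobial genes it was 3 without KO replicate 01 and 4 without KO replicate 03, WT replicate 73 or WT replicate 77. The medians of all 4 lists stayed below 0 with any library left out, and without WT replicate 77 they were -0.62 for the primary and -0.73 for the secondary granule genes.

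Monocyte and macrophage genes were mixed. Of 12 classical monocyte genes, 6 were lower in KO at an unadjusted p under 0.05 and none higher, with a median of -0.38. They were Ly6c2, Hp, Cd177, F13a1, Vcan and Ccr2, the chemokine receptor for exit from bone marrow, and Cd177 was also counted among the secondary granule genes. Of 11 non-classical monocyte genes, 4 were higher (Treml4, Eno3, Cx3cr1 and Ace) and 1, Pglyrp1, was lower, with a median of 0.18. Of 16 red pulp macrophage genes, 4 were higher (Csf1r, Adgre1, Treml4 and Cd163), with a median of 0.09, and Treml4 was also counted among the non-classical monocyte genes. Leaving out 1 KO library moved this median to 0.03 (replicate 73), 0.05 (replicate 21) or 0.14 (replicate 01 or 03). Of 7 marginal zone macrophage genes, 3 were higher (Marco, Cd209b and Cd209d), with a median of 0.54, or 0.34 without KO replicate 21. Marco, a scavenger receptor for bacteria, was 120 ± 27 FPKM (SD, n = 5) in KO against 71.6 ± 8.8 FPKM (SD, n = 5) in WT. Of 14 dendritic cell genes, 1, Siglech, was higher, with a median of 0.06, and this count was 0 without KO replicate 21, KO replicate 03, WT replicate 65 or WT replicate 73 and 2 without KO replicate 73, KO replicate 01 or WT replicate 77. With limma voom on recovered reads it was 0. The median of the dendritic cell genes was -0.04 without WT replicate 77 and 0.13 without KO replicate 01, so its sign depended on 1 library. The count was 3 for classical monocytes without KO replicate 01, and 5 for marginal zone macrophages without KO replicate 73 or WT replicate 67.

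The pair was also set against the summed FPKM of these lists in each spleen. Lyz1 was 0.861 to 2.05 FPKM per 100 FPKM of the red pulp macrophage list in KO and 0.226 to 0.479 in WT. Against the marginal zone macrophage list, whose own sum was 157 to 232 FPKM in KO and 108 to 152 in WT, Lyz1 was 9.14 to 21.6 per 100 FPKM in KO and 3.32 to 7.16 in WT. The sum of the classical monocyte list was lower in KO, at 230 to 330 FPKM against 324 to 417 FPKM in WT. Per 100 FPKM of this list Lyz1 was 6.18 to 12.5 in KO and 0.856 to 2.49 in WT. The sum of the mature neutrophil list was 427 to 1421 FPKM in KO and 932 to 3352 FPKM in WT. Against that list Lyz1 was 1.36 to 4.62 in KO and 0.107 to 0.808 in WT. The groups did not overlap for Lyz1 against any of these 4 lists. Nothing is read from this, since Lyz1 was chosen from this contrast and did not overlap before it was divided by a list. Lyz2 overlapped against the red pulp macrophage list, at 55.4 to 98.6 per 100 FPKM in KO and 66.1 to 78.9 in WT. It was lower in every KO spleen against the marginal zone macrophage list, at 589 to 864 in KO and 971 to 1140 in WT. Against the classical monocyte list it was 398 to 586 in KO and 294 to 426 in WT, with all KO spleens but replicate 73 above every WT spleen. Against the mature neutrophil list it was 87.7 to 315 in KO and 36.6 to 158 in WT, and against the secondary granule list 168 to 746 in KO and 63.9 to 397 in WT, and the groups overlapped for both.

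The lists of lysosomal genes and peptidoglycan sensors had medians close to 0. Of 18 lysosome and phagosome genes, 1, the protease gene Ctsl, was higher at an unadjusted p under 0.05, with a list median of -0.02. Their sum was 2334 to 3104 FPKM in KO and 2490 to 3084 FPKM in WT, which overlapped as Lyz2 did. Of 15 genes that sense or handle the products of lysozyme, 2 were lower, Pglyrp1, a peptidoglycan recognition protein of granules, and Card9, an adaptor of innate receptors, with a list median of -0.04 and a range from -0.59 to 0.40. Of 10 transcription factors that act on myeloid genes such as Lyz2, 1, Cebpe, which drives late granulocyte genes, was lower, with a log2 difference of -1.22. Spi1, which encodes PU.1, was at -0.05, Cebpa at 0.05, Cebpb at 0.13, Gabpa at 0.05 and Runx1 at -0.07 on that scale. The list median was -0.01. Ctsl no longer passed the unadjusted p without KO replicate 73 or 03, and Cebpe without KO replicate 21, KO replicate 03 or any of WT replicates 65, 73, 77 and 83, and neither passed it in the fit without a trend. The count for the genes that sense or handle the products was 1 without KO replicate 01 and 4 without WT replicate 67 or with median centring.

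Genes of the Paneth cell, the cell best known for Lyz1, were absent or near 0 in all but 2 libraries. Of 14 genes listed, 9 (7 alpha-defensin genes, Ang4 and Pla2g2a) had no read in any library. Mmp7, Itln1, Reg3g and Reg3b had at most 6, 2, 3 and 86 reads in a library. Clps, which also encodes the colipase of the pancreas, was at 1270 FPKM in WT replicate 67 and 16.5 FPKM in WT replicate 65 and had no read in the other 8 libraries. The cells that Lyz1 came from were not tested.

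**Figure D4:**
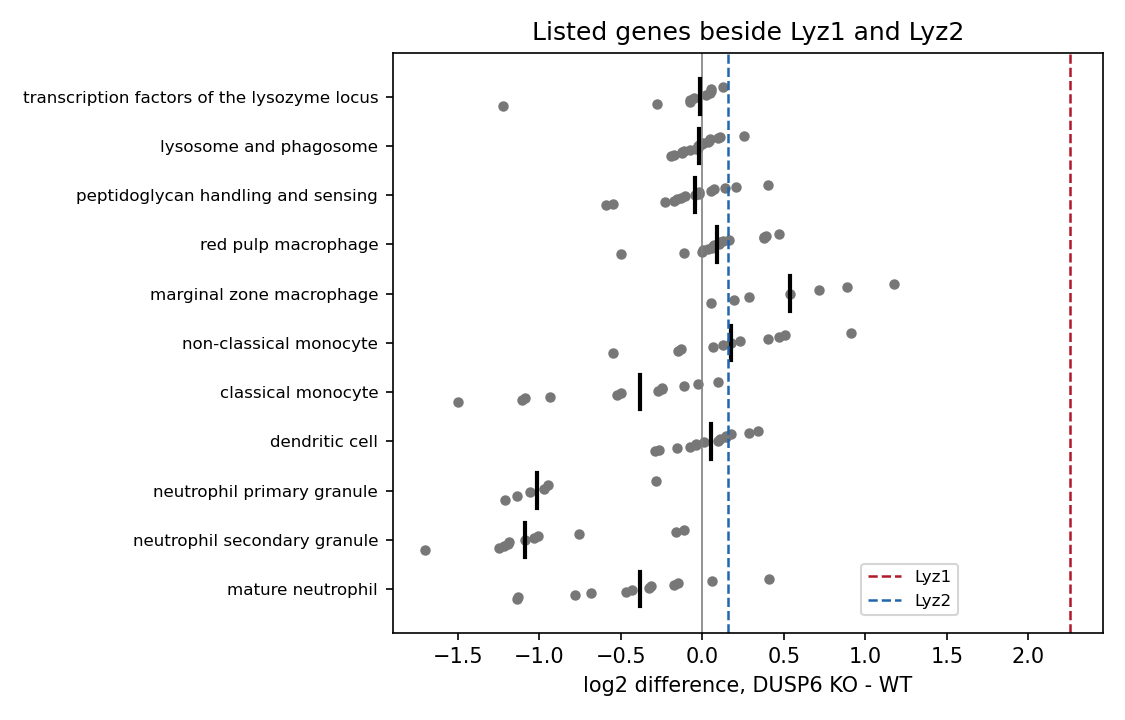
log2 difference of DUSP6 KO minus WT (horizontal axis) for the tested genes of 11 lists (grey points, 1 per gene), with the list median as a black bar and the values of Lyz1 (red dashed line, 2.26) and Lyz2 (blue dashed line, 0.16). The medians of the primary and secondary granule lists lie at -1.02 and -1.09, and rise to -0.62 and -0.73 without WT replicate 77. The line of Lyz1 is drawn for scale only, since it was chosen from this contrast.

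The genes whose levels varied most like the pair were sought among 11445 protein-coding genes whose mean level reached 1 FPKM, by Pearson correlation of log2 levels over the 10 spleens after subtraction of the group means. For Lyz1 they were Efl1 (r = 0.95), Tm2d3 (0.94), Gstk1 (0.92), Mvp (0.92) and Rab19 (0.92). Efl1 encodes a GTPase of ribosome maturation and Mvp the main protein of vault particles. For Lyz2 they were Smad4 (r = 0.98), Pde4dip (0.97), Spata6 (0.97), Cyb5b (0.97) and Ttc39b (0.97). The 2 sets of genes had no gene in common. For the ratio of Lyz1 to Lyz2 they were Gstk1 (0.95), Trpv2 (0.93), Efl1 (0.93), Tm2d3 (0.93) and Abhd11 (0.91). Of these, 3 were also among those of Lyz1. That overlap is built in, because the ratio holds Lyz1 and varied with it (r = 0.92). These correlations are the highest of many and describe the 10 spleens only, which share library and depth across all genes.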

How the data were processed

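Per the labels, poly-A RNA of 10 spleens was sequenced on an Illumina platform. Per the methods of the study, the authors aligned reads with Hisat2 (v2.0.5), counted them per gene with featureCounts (v1.5.0-p3 in the submitters' processing notes) and deposited FPKM. Whether strand was used is not given in the sources used here. The notes name the build hg38, but 53585 of 54495 mouse genes matched by ID had the coordinates of GRCm38. The members and gene lists were chosen with earlier results of these data known. Genes whose mean over the 10 libraries reached 0.1 FPKM were tested on log2(FPKM + 0.1) with limma (3.58.1, R 4.3.3, eBayes with trend), KO against WT without covariates, with Benjamini-Hochberg adjustment over all genes tested and a threshold of 0.05. Fold changes on this scale understate changes of low genes. The labels describe 5 different spleens per group, so p-values measure the spread between mice. Whole reads were recovered from FPKM and gene length in every library, with all values within 0.001 of a whole number. The fit was tested on simulated data. Transcripts were compared with blastn (2.17.0). The genes named were Lyz1, Lyz2, Dusp6, some coding neighbours within 1 Mb, the 5 genes most like each member and some genes of each list. Genes of the lists were named after their values were seen, and the most expressed genes of a list were not always named. Alternatives were other pseudocounts, filters, scalings and an untrended fit, limma voom on recovered reads, medians, and leaving out each library in turn.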

Additional observations from a re-analysis of the deposited data

Results flagged for a closer look

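The ratio of Lyz1 to Lyz2 in WT replicate 65 was 0.725%, and it stood apart from the other 4 WT spleens, whose ratios were 0.291% to 0.413%. Its gap to the nearest WT spleen was 0.718 of the range of the group. The cut-off of 0.71, taken from Dixon's test for 5 samples, was used only to flag values for a closer look. No test is read from this gap, since the ratio holds Lyz1, which was chosen from this contrast. The ratio in WT was 1 of 10 groups of values examined, and chance alone passes about 1 group in 20. This ratio was below that of every KO spleen (1.46% or more). WT replicate 65 held 172 reads of Clps. WT replicate 67 held 14810, with a ratio of 0.413%. WT replicates 73, 77 and 83 held none, with ratios of 0.359%, 0.291% and 0.412%. The part of such reads in the ratio was not tested.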

How the results depend on the processing

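The values of Lyz1, Lyz2, their ratio and their sum kept their direction and moved by less than the spread between spleens in all alternatives run. The log2 difference ranged from 2.08 to 2.41 for Lyz1, from 0.06 to 0.28 for Lyz2, from 1.89 to 2.29 for the ratio and from 0.09 to 0.30 for the sum. Leaving out 1 library at a time gave 2.10 to 2.41 for Lyz1, 0.08 to 0.22 for Lyz2, 1.97 to 2.29 for the ratio and 0.10 to 0.24 for the sum. The number of genes called was less steady. Leaving out 1 library gave 6 to 21 genes higher and 4 to 13 lower, with the most of both without KO replicate 21 and the fewest lower without WT replicate 83. A minimum mean of 1 FPKM gave 4 genes lower, and the cause was not tested. Of the listed genes, limma voom called 1, and leaving out 1 library called 0 to 1 (Cxcr2 without KO replicate 21, adjusted p = 0.04, limma). No gene within 1 Mb of the pair was called in any alternative. No paired analysis was possible because KO and WT share fewer than 2 replicate numbers. Depth limits Lyz1 most in WT, where it had as few as 75 reads in a library.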
